A study of Homo sapiens with 12 samples.

Results

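The 50 genes described here encode proteins that carry a cell through G2 and mitosis. They were taken by gene symbol, current or older, from the annotation of the array's probes. All 50 had probes, 79 in all, out of 11286 genes tested, and each gene was read through its brightest probe. Every one of these 50 probes lay above the background level of 7.29 (log2) on all 12 arrays, so no gene was lost to the filter on dim probes.

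Expression was measured with Illumina bead arrays in THP-1, a human line grown from an acute monocytic leukaemia. The lines carried CRISPR constructs against p21, a brake on cyclin-dependent kinases that CDKN1A encodes, against the microRNA miR-150, or a non-targeting (NT) construct. Each of the 6 lines (p21-2, p21-3, miR150-3, miR150-4, NT-2 and NT-3) received KLF4, a transcription factor of the zinc finger kind, by lentivirus, or the empty control virus (ECV), and all cells were harvested 5 days after infection and 17 days after selection. Each of the 6 groups (p21 with KLF4, miR-150 with KLF4, NT with KLF4, p21 with ECV, miR-150 with ECV and NT with ECV) therefore holds 2 arrays. The labels do not say whether a line is a clone or a pool, or whether lines of 1 target come from separate infections. The p-values therefore reflect how these arrays scatter, which may in part be technical, and the number of arrays limits the precision.

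Entry into mitosis is driven by CDK1 bound to cyclin B, which CDC25 phosphatases switch on by removing inhibitory phosphates. Polo and Aurora kinases then build the spindle, the checkpoint proteins hold the anaphase-promoting complex until every kinetochore is attached, and the complex with CDC20 and the E2 enzyme UBE2C starts anaphase and cyclin destruction. Most of these genes are transcribed in late S phase and G2, kept off earlier by the DREAM complex and switched on by B-MYB and FOXM1, through promoter elements known as the CHR and the CCAAT box. p21 is known to lower this programme in cells that stop dividing. In RNA from bulk cultures, a change in the share of cells in G2 or mitosis and a change in mRNA per cell cannot be told apart.

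On the arrays as a whole, 7 of 9 THP-1 monocytic markers with a probe lay above background on all 12 arrays, while CD14 did so on 9 and MPO on 4. Markers of other cell types did so on at most 1 array. ITGAM, a monocyte integrin, was at 10.84 to 11.27 (log2) on KLF4 arrays, against 7.78 to 8.18 on ECV arrays. The other monocytic markers did not all go that way. CD14, SPI1 and FCGR1A were higher with KLF4 in 6 lines and LYZ in 5. CSF1R was higher in 2 lines, CEBPA and MPO in 1 each and AZU1 in 0. The NT lines with KLF4 were the least alike: their root mean square SD over all genes was 0.198, against 0.0905 to 0.113 in the other 5 groups, and the members of NT-2 with KLF4 had the lowest median of all 12 arrays, at 10.06, against 10.14 to 10.40 on the others. Results that rest on NT-2 are given with and without it.

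CDKN1A mRNA was at 11.08 and 11.37 (log2) in p21 lines with KLF4, against 11.73 and 12.11 in miR-150 lines and 12.48 and 11.66 in NT lines with KLF4. With ECV it was at 9.11 and 8.88 in p21 lines, against 9.24 and 9.37 in miR-150 lines and 9.22 and 9.16 in NT lines. The p21 lines were the lowest with both viruses, but the difference from the other lines did not pass the test with KLF4 (-0.77, SE 0.175, limma adjusted p = 0.253) or with ECV (-0.25, SE 0.175, adjusted p = 0.999). KLF4 raised CDKN1A mRNA by 2.58 as a mean of the 3 targets (5.96-fold, SE 0.117, adjusted p = 1.03e-09), and by 2.23 in p21 lines (SE 0.202, adjusted p = 4.89e-06). The mRNA level does not show whether p21 protein was lost.

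KLF4 moved G2 and mitosis genes in both directions, with called differences of 0.15 to 0.73 upward and -0.36 to -0.17 downward (all differences on the log2 scale). As a mean of the 3 targets, 15 of the 50 rose and 6 fell at an adjusted p under 0.05, and 29 did not pass the test. Those that rose include CDC25B, NEK2 and UBE2C, and those that fell include MAD2L1, CENPM, CENPF and ECT2. Across all genes tested, 19.6% were called higher and 24.9% lower, beside 30.0% and 12% of the members. At an unadjusted p under 0.05 there were 25 of the 50 members and 51.0% of all genes. The median difference was 0.04 (log2) over the members and -0.02 over all genes, with the members' range at -0.36 to 0.73. All 6 KLF4 arrays lay above all 6 ECV arrays for 3 members, CDC25B, NEK2 and UBE2C (background 12.1%), and below them for 3, CKS2, MAD2L1 and CENPM (background 14.5%). The same sign in all 6 lines was seen upward in 8 members (background 18.5%) and downward in 7 (background 22.8%). Leaving out the ECV array of miR150-3 left 9 higher, and leaving out the KLF4 array of NT-3 gave 11 lower.

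**Figure D1:**
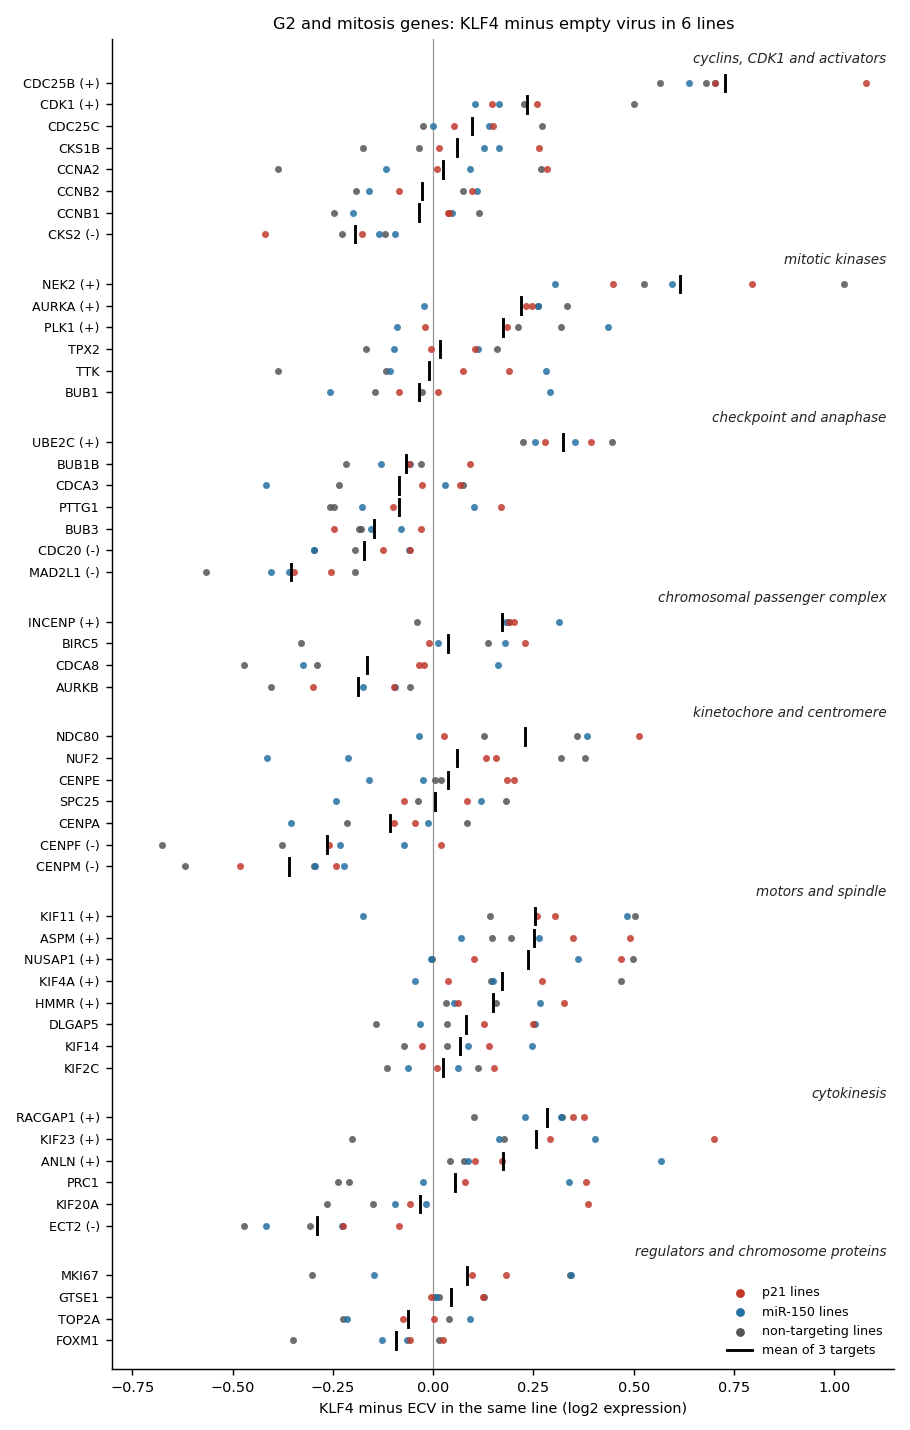
KLF4 minus ECV (log2, horizontal axis) for the 50 genes in each of the 6 lines, grouped by role, with the mean of the 3 targets as a black bar; (+) and (-) mark genes called higher or lower. CDC25B and NEK2 stand to the right of all others, while most genes lie on both sides of 0.

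The promoter windows of 6 of these genes, the 3 called higher and the 3 called lower with the smallest p for which a window was at hand, are printed to show how alike or unlike they are. Each is the 250 bases before the RefSeq start (GRCh38.p14), 5′ to 3′ on the gene's strand, and capitals mark every match to a CHR (TTTGAA or TTCGAA) or a CCAAT box (CCAAT) on either strand. The windows lie at chr20:3786701-3786950 (plus strand) for CDC25B, chr1:211675622-211675871 (minus) for NEK2, chr1:197146670-197146919 (minus) for ASPM, chr3:172750476-172750725 (plus) for ECT2, chr4:120066849-120067098 (minus) for MAD2L1 and chr1:214602945-214603194 (plus) for CENPF.
CDC25B: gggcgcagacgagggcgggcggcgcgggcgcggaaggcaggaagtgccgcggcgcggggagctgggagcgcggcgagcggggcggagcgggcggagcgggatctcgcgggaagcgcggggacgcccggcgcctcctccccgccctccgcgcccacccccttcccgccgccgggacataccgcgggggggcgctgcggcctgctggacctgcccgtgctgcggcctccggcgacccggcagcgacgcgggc
NEK2: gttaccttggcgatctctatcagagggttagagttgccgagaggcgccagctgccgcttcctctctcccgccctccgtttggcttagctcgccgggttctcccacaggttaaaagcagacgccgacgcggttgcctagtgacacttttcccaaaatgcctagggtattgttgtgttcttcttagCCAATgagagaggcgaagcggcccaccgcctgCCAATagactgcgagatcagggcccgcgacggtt
ASPM: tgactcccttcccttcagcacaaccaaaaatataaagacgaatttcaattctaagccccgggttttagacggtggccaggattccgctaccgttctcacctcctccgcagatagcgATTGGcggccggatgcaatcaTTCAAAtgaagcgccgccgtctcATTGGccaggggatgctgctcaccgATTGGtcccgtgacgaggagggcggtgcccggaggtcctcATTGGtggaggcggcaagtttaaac
ECT2: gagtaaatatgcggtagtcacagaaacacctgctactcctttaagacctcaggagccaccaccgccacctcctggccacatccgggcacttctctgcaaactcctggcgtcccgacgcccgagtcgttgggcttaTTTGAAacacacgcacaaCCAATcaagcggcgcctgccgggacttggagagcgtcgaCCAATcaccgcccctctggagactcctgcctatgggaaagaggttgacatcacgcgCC
MAD2L1: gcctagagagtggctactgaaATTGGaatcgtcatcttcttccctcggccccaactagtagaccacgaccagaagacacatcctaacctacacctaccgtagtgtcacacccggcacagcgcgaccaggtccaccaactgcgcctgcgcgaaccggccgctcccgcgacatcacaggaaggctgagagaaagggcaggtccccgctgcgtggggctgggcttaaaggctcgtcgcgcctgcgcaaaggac
CENPF: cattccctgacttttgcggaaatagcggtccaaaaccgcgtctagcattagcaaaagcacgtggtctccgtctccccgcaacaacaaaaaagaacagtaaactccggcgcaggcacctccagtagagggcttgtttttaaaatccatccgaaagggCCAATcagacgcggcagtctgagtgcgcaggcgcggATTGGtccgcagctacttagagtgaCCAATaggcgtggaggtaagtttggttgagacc
CDC25B, which rose most, has no match in its window, and NEK2 has CCAAT boxes at -66 and -34 from the start but no CHR. ASPM holds CCAAT boxes at -134, -90, -65 and -25 and a CHR at -113. ECT2, which fell, holds CCAAT boxes at -97 and -58, a further one across the start (the final capitals) and CHRs at -115 and, in the transcribed part not printed, at 35. MAD2L1 and CENPF have their CHR in the transcribed part too, at 25 and 41.

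Over 300 bases (250 before and 50 after the start), 41 of the 50 genes had a window. A CHR was found in 31 of them (75.6%), against 12.3% of the 9082 windows of all genes tested, and a CCAAT box in 33 (80.5%), against 37.0%. Both were present in 65.9%, against 5.11%. A pair of further motifs were less frequent: an E2F site (TTTGGCGC or TTTCCCGC) in 4.88%, against 3.82%, and a CACCC box of the kind that KLF proteins bind (CCACACCC or CCACGCCC) in 17.1%, against 10.6%. All were searched on both strands, and matches may overlap. Among genes called higher a CHR was found in 10 of 12 windows, among those called lower in 5 of 5 and among those not called in 16 of 24. The CACCC box was found in 0 of 12, 1 of 5 and 6 of 24. A match is a description of the letters and not a measured binding site.

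**Figure D2:**
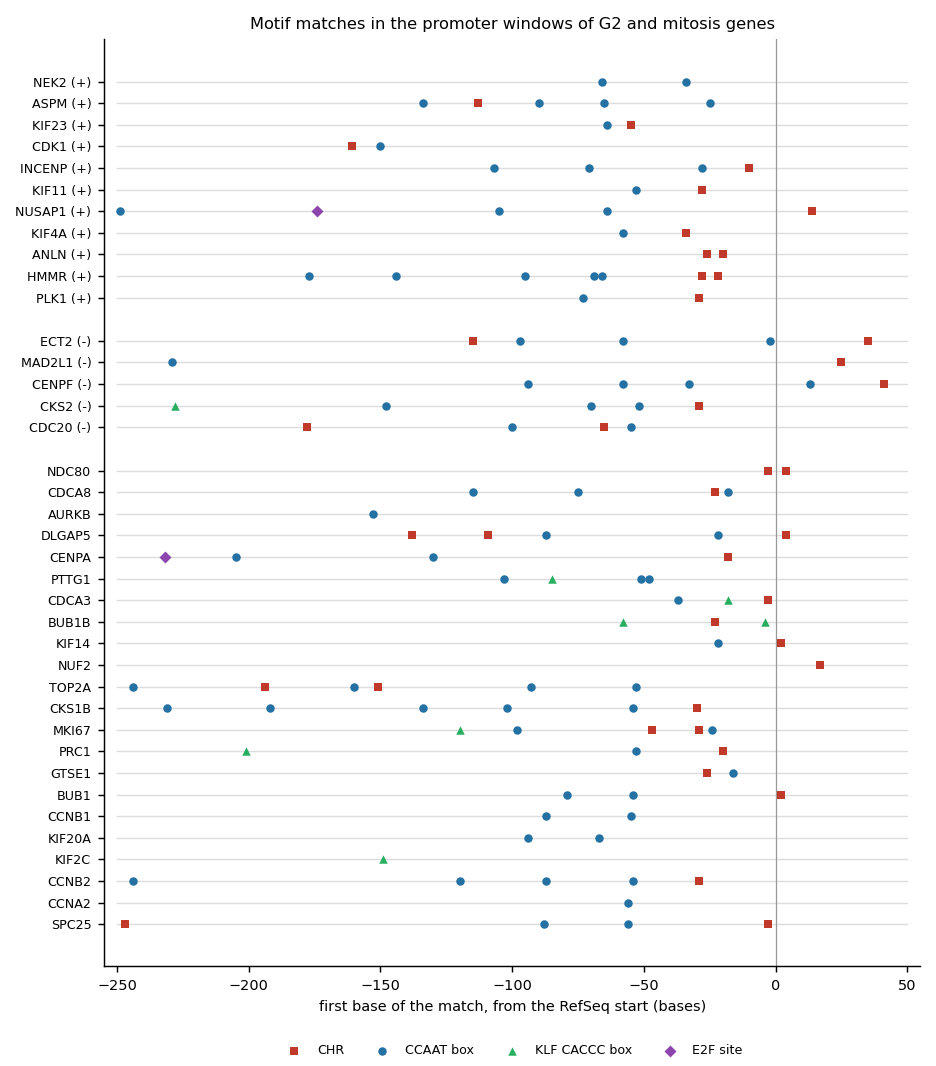
First base of each motif match (horizontal axis, bases from the RefSeq start at 0) in the promoter windows of the 38 genes with any match, ordered by whether KLF4 moved them higher (+), lower (-) or not past the test and then by p. The median CHR lies at -28 in genes called higher, -29 in those called lower and -23 in the rest, with single ones as far out as -247, and the median CCAAT box at -70, -58 and -87.

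The role groups that follow are small, and of all genes tested 19.6% were called higher and 24.9% lower. The counts of the role groups were not tested against these shares. Among the cyclins, CDK1 and its activators, 2 of 8 rose and 1 fell, with a median difference of 0.04. CDC25B, the phosphatase that activates CDK1 at the centrosome, was at 11.22 to 11.47 on the 6 KLF4 arrays (median 11.27, log2), against 10.40 to 10.70 on the 6 ECV arrays (median 10.58). It rose by 0.73 (1.66-fold, SE 0.0580, adjusted p = 2.71e-07), and by 0.57 to 1.08 in the single lines, with the highest value in p21-2. CDK1, the kinase that drives mitotic entry, was at 11.23 to 11.63 with KLF4 (median 11.49), against 11.04 to 11.37 with ECV (median 11.22), and rose by 0.23 (SE 0.0661, adjusted p = 0.0104) with overlapping arrays. CKS2, a small subunit of cyclin-dependent kinases, was at 12.18 to 12.36 with KLF4 (median 12.29), against 12.38 to 12.63 with ECV (median 12.46). It fell by 0.20 (SE 0.0535, adjusted p = 0.00834), though not past the test when its most variable probe was used (adjusted p = 0.0704). The cyclins themselves did not pass the test. CCNB1, cyclin B1, was at 9.52 to 9.91 with KLF4 (median 9.78) and 9.65 to 9.98 with ECV (median 9.78), a difference of -0.03 (SE 0.0619, adjusted p = 0.683) whose sign turned without NT-2 (0.03). CCNA2, CCNB2, CDC25C and CKS1B differed by 0.02, -0.03, 0.10 and 0.06.

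Of the 6 mitotic kinases and their partners 3 rose and none fell, with a median difference of 0.10. NEK2, a kinase that parts the centrosomes, was at 10.25 to 10.59 with KLF4 (median 10.52), against 9.57 to 10.08 with ECV (median 9.84). It rose by 0.62 (1.53-fold, SE 0.0765, adjusted p = 1.74e-05), and the lines ranged from 0.30 in miR150-4 to 1.02 in NT-3. Its second probe differed by 0.26. AURKA, the spindle pole kinase, was at 11.08 to 11.33 with KLF4 (median 11.20), against 10.88 to 11.10 with ECV (median 10.95), and rose by 0.22 (SE 0.0537, adjusted p = 0.00424) in all lines except miR150-4. PLK1, the polo kinase of mitotic entry, was at 8.92 to 9.26 with KLF4 (median 9.01), against 8.74 to 9.02 with ECV (median 8.86). Its difference of 0.17 (SE 0.0667) sat at the threshold (adjusted p = 0.0478) and missed it when the line was fitted as a block (adjusted p = 0.0641), without NT-2 (adjusted p = 0.0853) and under 8 of the 12 removals of 1 array. TTK, BUB1 and TPX2, which act in checkpoint signalling and spindle assembly, differed by -0.01, -0.04 and 0.02.

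The checkpoint and anaphase genes were split, with 1 of 7 higher and 2 lower. UBE2C, the E2 enzyme that marks cyclins for destruction, was at 10.91 to 11.13 with KLF4 (median 11.09), against 10.68 to 10.85 with ECV (median 10.69), and rose by 0.32 (1.25-fold, SE 0.0560, adjusted p = 0.000303). A dim second UBE2C probe, above background on 4 arrays, differed by 0.03. MAD2L1, the checkpoint protein that binds CDC20, was at 10.52 to 11.03 with KLF4 (median 10.85), against 11.08 to 11.38 with ECV (median 11.14), and fell by 0.36 (SE 0.0688, adjusted p = 0.00076). A dimmer second MAD2L1 probe differed by -0.03, and with the mean of its probes the gene did not pass (-0.19, adjusted p = 0.0623). CDC20, the activator of the anaphase-promoting complex, was at 12.58 to 12.89 with KLF4 (median 12.82), against 12.88 to 13.10 with ECV (median 12.93). It fell by 0.17 (SE 0.0509, adjusted p = 0.0131) and in all 6 lines, but missed the threshold with normexp background correction (adjusted p = 0.0517) and with cyclic loess (0.0608). UBE2C and CDC20 moved in opposite directions. BUB1B, BUB3, PTTG1 (securin) and CDCA3 differed by -0.07, -0.15, -0.09 and -0.08, none past the test.

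In the chromosomal passenger complex 1 of 4 genes rose. INCENP, its scaffold, was at 8.34 to 8.69 with KLF4 (median 8.61) and 8.35 to 8.45 with ECV (median 8.40), and rose by 0.17 (SE 0.0510, adjusted p = 0.0134). It was not called with the mean of its probes (0.12, adjusted p = 0.118) or with its most variable one (0.07, adjusted p = 0.514), a dim probe above background on 6 arrays. AURKB, its kinase, was lower in all 6 lines, at 9.76 to 10.29 with KLF4 and 10.15 to 10.55 with ECV, but did not pass (-0.19, SE 0.0798, adjusted p = 0.0704). CDCA8 (borealin) and BIRC5 (survivin) differed by -0.16 and 0.04.

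Kinetochore and centromere genes had 2 of 7 lower and none higher. CENPM, a protein of the inner kinetochore, was at 9.67 to 10.23 with KLF4 (median 10.08), against 10.29 to 10.52 with ECV (median 10.39). It fell by 0.36 (SE 0.0804, adjusted p = 0.00221), and its other probes differed by -0.26 and -0.27. CENPF, which joins the kinetochore in G2, was at 8.77 to 9.36 with KLF4 (median 9.26), against 9.31 to 9.55 with ECV (median 9.44), and fell by 0.27 (SE 0.0621, adjusted p = 0.003). Its lowest array was NT-2 with KLF4, and its line differences ran from -0.68 in NT-2 to 0.02 in p21-2. NDC80, which binds microtubules, differed by 0.23 and fell just short of the threshold (SE 0.0891, adjusted p = 0.0504). Its partners in the NDC80 complex, NUF2 and SPC25, differed by 0.06 and 0.01, while CENPA and CENPE differed by -0.11 and 0.04.

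Of the spindle motors and spindle proteins, all 8 had a positive difference by their brightest probe, 5 rose and the median was 0.16. The number called was 1, ASPM, without the ECV array of NT-3 or that of miR150-3, 2 without the KLF4 array of miR150-3 or either array of p21-2, 3 without the KLF4 array of NT-3, and 2 with normexp background correction. ASPM, a spindle pole protein, was at 9.81 to 10.19 with KLF4 (median 10.03), against 9.64 to 9.95 with ECV (median 9.74), and rose by 0.25 (SE 0.0502, adjusted p = 0.000929) in all 6 lines. Both p21 lines held its highest values with KLF4. KIF11, the motor that pushes spindle poles apart, NUSAP1, a microtubule bundling protein, KIF4A, a chromosome motor, and HMMR, a spindle protein, rose by 0.25, 0.24, 0.17 and 0.15, with adjusted p-values of 0.0173, 0.0226, 0.0272 and 0.0466. HMMR, like PLK1, was not called with the line as a block, while NDC80, BUB3 and AURKB were. DLGAP5, KIF14 and KIF2C differed by 0.08, 0.07 and 0.03. A second DLGAP5 probe, nearly as bright (mean 10.35 against 10.37), differed by -0.06, so its sign rests on the choice of probe. DLGAP5 was 1 of 7 members whose kept probes differed in sign, among 24 with over 1 kept probe.

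Cytokinesis genes had 3 of 6 higher and 1 lower. RACGAP1, a subunit of centralspindlin, was at 10.20 to 10.61 with KLF4 (median 10.56), against 10.10 to 10.29 with ECV (median 10.24), and rose by 0.28 (SE 0.0579, adjusted p = 0.00117). ECT2, the exchange factor for RhoA that RACGAP1 recruits, was at 9.01 to 9.43 with KLF4 (median 9.19), against 9.33 to 9.57 with ECV (median 9.49). It fell by 0.29 (SE 0.0547, adjusted p = 0.000638), in every line, and most in NT-3. KIF23, the motor of centralspindlin, was at 10.12 to 10.78 with KLF4 (median 10.43), against 10.08 to 10.32 with ECV (median 10.18), and rose by 0.26 (SE 0.0659, adjusted p = 0.00584). It was lower with KLF4 in NT-2, and its dim second probe differed by -0.08, so that the mean of both probes did not pass (0.09, adjusted p = 0.199). ANLN (anillin) rose by 0.18 (adjusted p = 0.029), a call lost with normexp (adjusted p = 0.0671) and without single arrays of all 3 targets, while PRC1 and KIF20A differed by 0.05 and -0.03.

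Of the 4 regulators and chromosome proteins 0 passed the test in limma, and 0 had an unadjusted p under 0.05. FOXM1, the transcription factor of the G2 programme, was at 8.99 to 9.36 with KLF4 (median 9.25) and 9.24 to 9.43 with ECV (median 9.31), a difference of -0.09 (adjusted p = 0.256) that passed with its most variable probe (-0.22, adjusted p = 0.0055). TOP2A, which untangles DNA, was at 11.54 to 11.84 with KLF4 (median 11.73) and 11.65 to 11.83 with ECV (median 11.77), and differed by -0.06 (adjusted p = 0.392). MKI67, the Ki-67 protein of dividing cells, was at 8.31 to 8.81 with KLF4 (median 8.57) and 8.36 to 8.61 with ECV (median 8.47). Its difference was 0.09 (adjusted p = 0.448) with all lines and 0.19 without NT-2, where it passed (adjusted p = 0.0278). GTSE1 differed by 0.05.

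An exact permutation test over the 924 splits of 12 arrays into 6 and 6, two-sided and blind to line and target, gave its smallest possible p of 0.002165 for CDC25B, NEK2, UBE2C, MAD2L1, CENPM, CKS2 and CDKN1A. The p was 0.004329 for ECT2 and CDC20, 0.006494 for CENPF and AURKA, 0.01082 for RACGAP1, 0.01299 for ASPM, 0.02381 for KIF23, 0.02814 for CDK1 and 0.04113 for PLK1. Most of these genes were chosen for their small p in the same contrast on the same arrays, so these values are no second test. CCNB1, TOP2A, MKI67 and FOXM1 had p-values of 0.643, 0.26, 0.34 and 0.136.

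**Figure D3:**
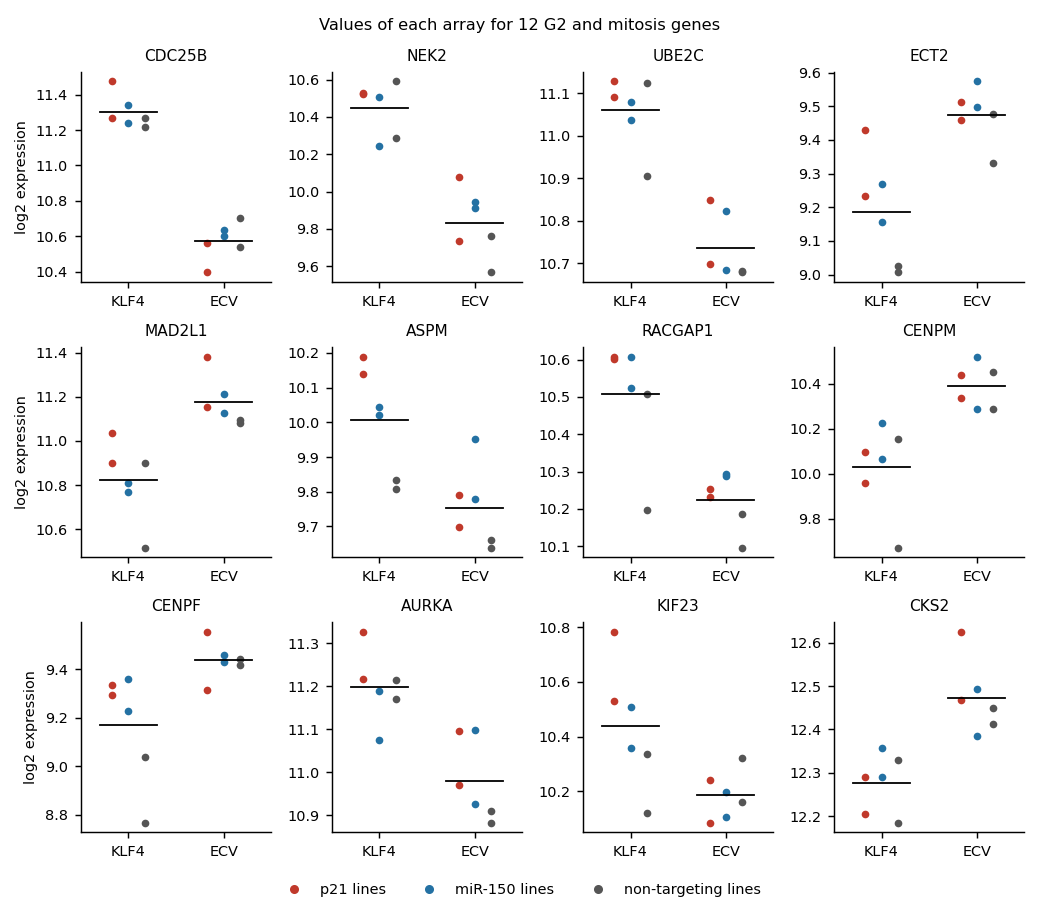
Log2 expression (vertical axis) of the 12 genes with the smallest p on each KLF4 and ECV array, coloured by CRISPR target, with the mean of each virus as a line. For CDC25B, NEK2 and UBE2C every KLF4 array lies above every ECV array, and for MAD2L1, CENPM and CKS2 below.

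Within single targets fewer genes passed. In p21 lines 6 members rose (background 9.45%) and 1 fell (background 10.8%; 2 fell with the line as a block), in miR-150 lines 4 rose (background 8.73%) and 3 fell (background 8.92%), and in NT lines 7 rose (background 12.8%) and 6 fell (background 16.1%). The median difference was 0.10 in p21 lines, 0.01 in miR-150 lines and -0.04 in NT lines. CDC25B, NEK2 and UBE2C were the 3 members called higher in every target, and no member was called lower in every target, among 18 called in at least 1. No share over all genes is given for these overlaps, so they cannot be called many or few. CDC25B rose by 0.89 in p21 lines, 0.67 in miR-150 lines and 0.62 in NT lines, and NEK2 by 0.62, 0.45 and 0.77 in the same order. In p21 lines ASPM, at 10.19 and 10.14 with KLF4 and 9.70 and 9.79 with ECV, rose by 0.42 (SE 0.0869, adjusted p = 0.00382), and KIF23, at 10.78 and 10.53 against 10.08 and 10.24, by 0.50 (SE 0.114, adjusted p = 0.00724). In NT lines CENPF, at 8.77 and 9.04 with KLF4 and 9.44 and 9.42 with ECV, fell by 0.53 (SE 0.107, adjusted p = 0.0023), and ECT2, at 9.03 and 9.01 against 9.33 and 9.48, by 0.39 (SE 0.0947, adjusted p = 0.0071). ECT2 fell in miR-150 lines too, by 0.32 (SE 0.0947, adjusted p = 0.0299), with arrays at 9.27 and 9.16 with KLF4 and 9.50 and 9.57 with ECV. Without NT-2 the fall of CENPF in NT lines missed the threshold (-0.38, adjusted p = 0.0545). Without the ECV array of NT-3 the fall of ECT2 in NT lines did too (adjusted p = 0.0763), and so did the rise of NEK2 in p21 lines without the ECV array of p21-2 (0.45, adjusted p = 0.0737) and that of KIF23 with the mean of its probes (0.28, adjusted p = 0.0502). With normexp background correction the calls of NEK2, ECT2 and NUF2 in miR-150 lines were lost (adjusted p = 0.0767, 0.0702 and 0.0735). Those of ECT2 and NUF2 were lost too with cyclic loess (adjusted p = 0.058 and 0.0514) and without any one of the 4 miR-150 arrays (adjusted p of 0.0565 to 0.194 and 0.0548 to 0.195). That of NEK2 was lost without either miR150-3 array or the ECV array of miR150-4 (adjusted p of 0.115 to 0.229).

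NUF2, a subunit of the NDC80 complex at the kinetochore, was the 1 member called in opposite directions, a count given without its share over all genes. It was at 9.39 and 9.28 in miR-150 lines with KLF4, against 9.60 and 9.69 with ECV, and fell by 0.31 (SE 0.0920, adjusted p = 0.0299). It was at 9.49 and 9.61 in NT lines with KLF4, against 9.11 and 9.29 with ECV, and rose by 0.35 (SE 0.0920, adjusted p = 0.0114). In p21 lines it was at 9.61 and 9.62 with KLF4 and 9.48 and 9.47 with ECV. With the mean of its probes the difference in miR-150 lines was -0.11 (adjusted p = 0.351). The KLF4 effect in miR-150 lines minus that in the other lines was -0.56 (SE 0.113, limma unadjusted p = 0.000216). It did not pass over all genes (adjusted p = 0.9998). That comparison was added after the data were seen, and NUF2 was picked by its calls on the same arrays. Its unadjusted p is therefore no separate test. The opposite sign rests on its brightest probe. A dimmer NUF2 probe differed by -0.15 and -0.12 in the miR-150 lines and by 0.21 and -0.27 in NT-2 and NT-3. Another NUF2 probe, above background on 3 arrays, differed by 0.08 and 0.15 in the miR-150 lines and 0.18 and 0.33 in the NT lines.

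The counts within a target depend on the background correction and on single arrays. The numbers called over all genes tested changed with single arrays too. Whether the members' numbers changed more than those was not tested. Over removals of 1 array the members' median difference ran from 0.06 to 0.11 in p21 lines. It ran from -0.02 to 0.08 in miR-150 lines and from -0.11 to 0.06 in NT lines. Single lines of a target also differed. Of the 50 genes, 37 and 30 were higher with KLF4 in p21-2 and p21-3, 33 and 17 in miR150-3 and miR150-4, and 18 and 32 in NT-2 and NT-3, against 45.7% to 48.5% of all genes in each line. The members' median difference was 0.14 and 0.06 in the p21 lines, 0.13 and -0.09 in the miR-150 lines, and -0.16 and 0.07 in the NT lines, so the lines of the miR-150 and of the NT target lay on opposite sides of 0.

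The p21 lines were set against the other lines with KLF4 because p21 is itself a brake on this programme and was the target of the edit. No member passed the test in limma. Across all genes 0% were called higher and 0.0443% lower, and 10 members (20.0%) had an unadjusted p under 0.05, against 8.17% of all genes. Of the 50 differences, 43 were positive (86.0%), against 53.5% over all genes, with a median of 0.12 against 0.01. Both p21 arrays lay above the other 4 KLF4 arrays for 9 members (background 8.81%), CCNB1, AURKA, TPX2, MAD2L1, NUF2, DLGAP5, ASPM, KIF20A and KIF23, and below them for 0 (background 7.21%).

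All 6 cytokinesis genes had positive differences, with a median of 0.21. KIF23 was at 10.78 and 10.53 in p21 lines with KLF4, against 10.51 and 10.36 in miR-150 lines and 10.12 and 10.34 in NT lines, a difference of 0.33 (SE 0.0988, unadjusted p = 0.00528, adjusted p = 0.425). PRC1, which bundles the central spindle, was at 12.05 and 11.86 in p21 lines, against 11.92 and 11.73 in miR-150 lines and 11.58 and 11.56 in NT lines (0.26, SE 0.0875, adjusted p = 0.515). ECT2 was at 9.23 and 9.43 in p21 lines, against 9.27 and 9.16 in miR-150 lines and 9.03 and 9.01 in NT lines (0.22, SE 0.082, adjusted p = 0.55). In these 3 genes the NT lines held the lowest values. ASPM was at 10.19 and 10.14 in p21 lines, against 10.04 and 10.02 in miR-150 lines and 9.81 and 9.83 in NT lines (0.24, SE 0.0753, adjusted p = 0.464). PLK1 was the lowest of the 50 at -0.19, with 8.92 and 8.93 in p21 lines, against 9.26 and 8.93 in miR-150 lines and 9.17 and 9.09 in NT lines. The checkpoint and anaphase genes (7 of 7) and the spindle motors and proteins (8 of 8) were all positive too, with medians of 0.14 and 0.08. The remaining role groups held both signs. Positive were 6 of 8 cyclins, CDK1 and activators, 5 of 6 mitotic kinases and 3 of 4 passenger complex genes. So were 5 of 7 kinetochore and centromere genes and 3 of 4 regulators and chromosome proteins. With ECV, 3 of the 6 cytokinesis genes were positive.

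The size of that shift depended on the lines it was set against. It was 0.14 against NT lines (46 of 50 positive) and 0.08 against miR-150 lines (39 of 50). Without NT-2 the median against the other lines was 0.08 with 38 positive, and without miR150-4 it was 0.10 with 38 positive. Against NT-3 alone 29 of 50 differences were positive, and against miR150-3 alone 28. Without the KLF4 array of NT-3, 4 members were called higher (background 1.88%) and 0 lower (background 3.49%), KIF23 among the 4 (adjusted p = 0.02).

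With ECV no member passed in limma either (background 0% higher and 0.00886% lower), 2 (4.0%) had an unadjusted p under 0.05, against 4.84% of all genes, and 31 of 50 differences were positive (52.4% of all genes), with a median of 0.02. Without p21-3 the number positive was 21 and the median -0.02. ANLN was at 10.10 and 10.19 in p21 lines with ECV, against 9.75 and 10.06 in miR-150 lines and 9.86 and 9.84 in NT lines (0.27, SE 0.0903, adjusted p = 0.811). CDK1 was at 11.37 and 11.36 in p21 lines, against 11.31 and 11.13 in miR-150 lines and 11.04 and 11.06 in NT lines (0.23, SE 0.0992, adjusted p = 0.958). For both genes the p21 arrays lay above all others. AURKB was at 10.55 and 10.37 in p21 lines, against 10.15 and 10.27 in miR-150 lines and 10.16 and 10.34 in NT lines (0.23, adjusted p = 0.999). CKS1B, a partner of cyclin-dependent kinases, was at 12.46 and 12.25, against 12.50 and 12.44 in miR-150 lines and 12.52 and 12.56 in NT lines (-0.15, adjusted p = 0.999). The p21 arrays lay above the other ECV arrays for 4 members (background 8.68%) and below them for 3 (background 7.68%).

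**Figure D4:**
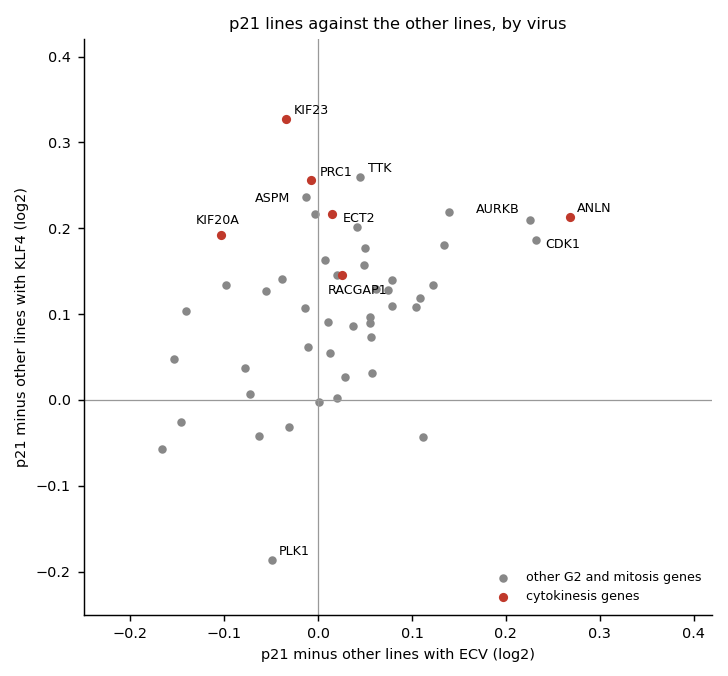
Each of the 50 genes by its difference between p21 lines and the mean of the other targets with KLF4 (vertical axis, log2) and with ECV (horizontal axis, log2), with the cytokinesis genes in red. With KLF4, 43 of 50 points lie above 0, and PLK1 lies lowest; with ECV, 31 lie right of 0, and no single gene passed the test on either axis.

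The KLF4 effect in p21 lines minus its mean in the other lines tested the difference itself. In limma 0 members passed (background 0% in either direction), and 3, KIF23 (0.36), ASPM (0.25) and KIF20A (0.30), had an unadjusted p under 0.05 (6.0%, against 3.7% of all genes), with the lowest adjusted p at 0.999. PRC1 differed by 0.26 (SE 0.124). KIF20A, a motor of the central spindle, was at 10.30 and 10.18 in p21 lines with KLF4 and 9.92 and 10.24 with ECV, against 10.12, 10.13, 10.00 and 9.94 with KLF4 and 10.14, 10.22, 10.27 and 10.09 with ECV in the other lines, the miR-150 lines first. Of the 50 differences, 40 were positive (51.3% of all genes), with a median of 0.08. Without NT-2 the median was 0.02 with 28 positive, and without miR150-4 it was 0.03 with 29 positive.

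Other cell cycle lists, chosen with earlier results known, were read beside these genes for the mean KLF4 effect. For scale, 19.6% of all genes tested were called higher and 24.9% lower. The counts of these lists were not tested against those shares. Of 45 other mitotic genes 5 rose and 9 fell. CEP55, a protein of abscission, was at 11.22 to 11.58 with KLF4 and 10.81 to 11.22 with ECV and rose by 0.47 (adjusted p = 1.37e-05), while TRIP13, a remodeller of MAD2, fell by 0.54 (adjusted p = 5.87e-05) and MIS18A, which helps load CENPA, by 0.45 (adjusted p = 8.6e-05). Of 13 genes of the anaphase-promoting complex, a list that includes its regulators FZR1 and FBXO5, 0 rose and 5 fell. ANAPC1, ANAPC11 and ANAPC13 fell by 0.56, 0.27 and 0.22. Of 18 condensin and cohesin genes NCAPG2 rose by 0.25 and STAG2 fell by 0.21, while SGO2 differed by 0.12 (adjusted p = 0.0734). Of 11 checkpoint kinases and CDK1 inhibitors 2 rose and 4 fell; CDC25A, the phosphatase of the G1 to S transition, fell by 0.43 and ARPP19, a phosphatase inhibitor, by 0.26, while BORA, an activator of PLK1, rose by 0.24. Of 13 DREAM, MuvB and B-MYB genes 1 rose and 4 fell, with E2F5, TFDP1 and E2F4 falling by 0.39, 0.30 and 0.26.

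The S phase genes, which copy DNA and make its building blocks, fell in most cases. Of 24, 0 rose and 19 fell in limma, while 19.6% of all genes were called higher and 24.9% lower. At an unadjusted p under 0.05 there were 21 (51.0% of all genes). The median was -0.34, beside 0.04 for the G2 and mitosis genes and -0.02 for all genes. MCM2, a subunit of the replicative helicase, was at 9.51 to 10.11 with KLF4 and 10.46 to 10.72 with ECV and fell by 0.67 (adjusted p = 1.45e-05). MCM5 fell by 0.49 and CCNE1, cyclin E1, by 0.45. The list's median was below 0 in all 6 lines, from -0.60 in NT-2 to -0.17 in miR150-3, while that of the G2 and mitosis genes was above 0 in 4 lines and below it in NT-2 and miR150-4. The lists share the same arrays. With KLF4, p21 lines against the others had positive differences in 41 of 45 other mitotic genes, 16 of 18 condensin and cohesin genes, 21 of 24 S phase genes, 11 of 13 DREAM, MuvB and B-MYB genes, 8 of 11 checkpoint kinases and CDK1 inhibitors and 7 of 13 genes of the anaphase-promoting complex, beside 43 of the 50 G2 and mitosis genes and 53.5% of all genes.

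**Figure D5:**
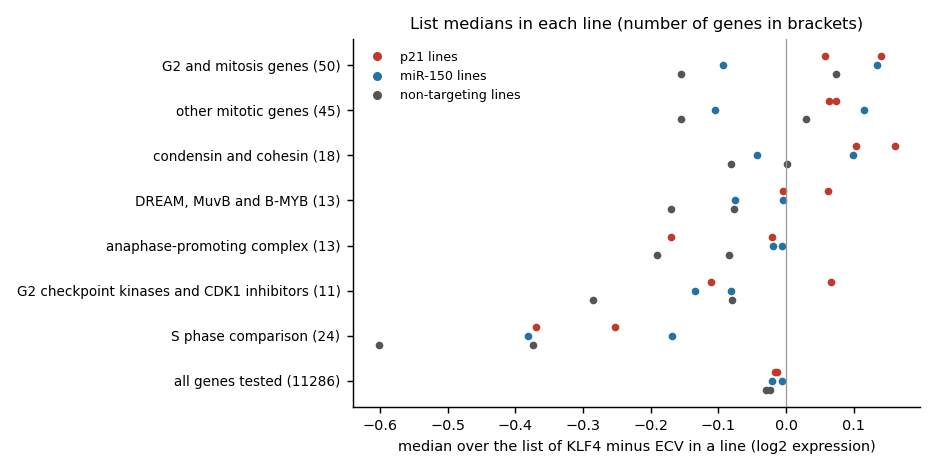
Median over each list of KLF4 minus ECV (horizontal axis, log2) in each of the 6 lines, coloured by CRISPR target. The S phase list lies between -0.60 and -0.17, left of the G2 and mitosis genes, which spread from -0.16 to 0.14, and of all genes near 0.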

How the data were processed

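Total RNA, isolated with a Trizol and column kit, was turned into biotin-labelled cRNA and hybridised to Illumina bead arrays, per the labels' protocols. The authors deposited log2 expression values per probe for 12 arrays; how they were normalized is not stated in any label or header used here. All array medians were 7.17. A deposited raw table was not used, because its 24 value columns match no sample label.

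Of 47323 probes, 30113 carried 1 gene symbol, 8 several and 17202 none in the platform annotation, and 30074 were matched by identifier to RefSeq (GRCh38.p14). Probes above 7.29 (log2) on at least 2 arrays were kept (20100, of which 15028 have 1 symbol). That level is the one under which 97.5% of the background lies, when the lower side of the background peak at 7.09 (density bandwidth 0.04) is mirrored. The brightest kept probe stood for each of 11286 genes.

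limma 3.58.1 (R 4.3.3) fitted 1 mean per group to all 12 arrays (6 residual degrees of freedom), with Benjamini-Hochberg adjustment over all genes and a threshold of 0.05, for 8 comparisons, 1 of them (miR-150 against other lines) added after the data were seen. Python 3.11.15, pandas 2.3.3 and matplotlib 3.10.9 were used for the rest. The number of arrays limits the precision.

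The same CRISPR line received both viruses, so line pairs arrays by the labels; deviations from group means correlated by 0.099 in NT, -0.050 in miR-150 and 0.072 in p21 lines. A fit with line as a replicate block was an alternative, with other probe filters, background correction (normexp, offset 16), cyclic loess, probe choice, variance models, array weights, fewer groups and removal of single arrays; removal of NT-2 was added after the data were seen.

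The members and lists were chosen with earlier results of these data known. Array values are given for the 12 members with the smallest p for the mean KLF4 effect, the 4 smallest in each other comparison and 8 well-known members, and the 3 genes of smallest p are named from each other list. The remaining members are given by their difference within their role group.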

Additional observations from a re-analysis of the deposited data

Results flagged for a closer look

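In 5 members every line of one target moved one way with KLF4 and every line of another target the opposite way; beside CKS1B, NUF2 and PRC1 they were TTK and CENPE. That is 10% of the members, against 11.4% of all genes tested. These pairwise differences between targets were not tested, and in limma 0 members passed the wider tests of the KLF4 effect in p21 or in miR-150 lines against the other lines, with 3 (6.0%, against 3.7% of all genes) and 1 (2.0%, against 2.33%) at an unadjusted p under 0.05. CKS1B was higher with KLF4 in both miR-150 lines and in both p21 lines and lower in both NT lines, with the mean effect 0.25 (log2) higher in miR-150 than in NT lines and likewise 0.25 higher in p21 than in NT lines. A dimmer CKS1B probe had the same signs in p21 and NT lines but was negative in the miR-150 lines, with 0.05 and 0.00 in p21 lines, -0.13 and -0.04 in miR-150 lines and -0.31 and -0.15 in NT lines. NUF2 was lower with KLF4 in both miR-150 lines and was higher with KLF4 in the others, its effect in miR-150 lines minus that in NT lines being -0.66, and that in p21 lines minus that in miR-150 lines 0.46. PRC1 was higher with KLF4 in both p21 lines and lower in both NT lines, a difference between the effects of 0.45. With 2 arrays in a group, single arrays were not tested for standing apart.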

How the results depend on the processing

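Counts of members called by the mean KLF4 effect (15 higher, 6 lower) stayed within 1.5 times of these under every planned setting except the removal of single arrays, where they ran from 9 (without the ECV array of miR150-3) to 16 higher and from 6 to 11 lower (11 without the KLF4 array of NT-3). With line as a replicate block, 14 were higher and 8 lower, with 19 of 21 calls shared, PLK1 and HMMR lost, and BUB3, AURKB and NDC80 gained; it raised the number lower in p21 lines to 2 and changed no other named call. In NT lines (7 higher, 6 lower) the counts were 3 and 2 with normexp, 11 and 3 with cyclic loess, 3 and 3 with array weights, 2 and 1 with only the groups compared, and 1 lower without NT-2; removing single arrays gave 2 to 10 and 1 to 11. In miR-150 lines (4 higher, 3 lower) they were 1 and 0 with normexp, 7 and 0 with cyclic loess, 2 higher with a trended, robust variance, 7 higher without NT-2 and 1 lower with the mean of probes; removing single arrays gave 1 to 7 and 0 to 3. In p21 lines (6 higher, 1 lower) the number lower was 0 with normexp, cyclic loess, the mean of probes and the most variable probe, and 3 with array weights, only the groups compared or without NT-2; removing single arrays gave 2 to 7 and 0 to 3. The number higher in p21 lines against others with KLF4 (0) ran from 0 to 4 over such removals, 4 without the KLF4 array of NT-3. The difference of CCNB1 changed sign with cyclic loess (0.020), without NT-2 (0.026) and over removals of 1 array (-0.076 to 0.0059), and that of CDK1 between p21 and other lines with ECV did with its most variable probe (-0.0098). With single arrays removed, the numbers called over all genes tested changed as well, for the mean KLF4 effect and within each target. The numbers called over all genes under each setting are not printed here. The members' counts therefore cannot be called more or less stable than those of other genes. The cause of these changes was not tested. The slide could not be fitted as a block, because no file used here ties slides to samples. The 2 arrays per group limit the precision of every difference within a target.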
